A study of Mus musculus with 4 samples.

Results

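The genes described here are 36 listed genes of glycolysis and of the response to low oxygen. They were chosen by name, with earlier results of these data known. Of the 36 genes, 35 had a row of their own among the 23356 gene rows of the authors' deposited table. All 35 were tested there and reached 1 FPKM in both groups. They comprise 21 genes of glucose uptake, glycolysis and lactate handling, 4 of oxygen sensing, and 10 targets of hypoxia-inducible factor (HIF) outside glycolysis. The enolase gene Eno1 shares its row with the copy Gm5506, so it is given apart and counted in no total. FPKM counts fragments per kilobase of transcript relative to all mapped fragments, so levels can be compared between genes on that scale.

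T helper 17 (Th17) cells are a CD4 lineage that makes IL-17 cytokines. They came from wild-type C57BL/6 mice aged 6 to 8 weeks and were cultured under Th17 conditions for 48 h. The libraries, 2 with vehicle and 2 with recombinant mouse serum amyloid A1 (SAA1) at a labelled 2 ng/ml, share strain, age and culture time. SAA1 is an acute-phase protein of liver and gut epithelium. The sources used here do not give the number of mice behind each library, the cytokines of the culture or its oxygen level.

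Glycolysis breaks glucose down to pyruvate, and activated T cells run it at a high rate even in oxygen, exporting much of the pyruvate as lactate. HIF is a pair of proteins whose oxygen-regulated subunit, HIF-1α, is marked for destruction by prolyl hydroxylases and the VHL ubiquitin ligase when oxygen is present. When it is stable it binds a short DNA element and raises transcription of nearly every glycolytic step, and of genes for mitophagy, collagen processing and blood vessel growth. In T cells HIF-1α is also induced by receptor signals and by STAT3, and it is known to favour the Th17 programme.

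Each group has a single value per gene, made by the authors from both libraries, so no spread between libraries can be shown, and the sequencing depth is unknown. The error given with a log2 ratio is the standard error (SE) implied by the authors' test statistic. A gene is called when its adjusted p in the authors' deposited table is under 0.05. The label of the cells was checked against markers. The 7 T cell marker rows summed to 1059 FPKM with vehicle and 1036 with SAA1, with Thy1 called higher (66.0 and 96.8 FPKM) and Cd3e called lower (39.1 and 28.2) in the authors' deposited table and the others, Cd4 at 162 and 131 among them, not called. Il17a was at 56.0 and 568 FPKM. The 6 Th17 markers, 5 of them called higher in the authors' deposited table, summed to 251 FPKM with vehicle and 1744.5 with SAA1. The part of this shift in the results below was not tested. The 8 myeloid marker rows summed to 39.0 and 35.7 FPKM, of which Ctss alone gave 37.2 and 34.5, with C1qa at 0 in both groups. The 6 CD8 and NK cell markers summed to 41.5 and 38.3 FPKM, of which Nkg7 gave 33.5 and 31.4, and the 6 B cell markers to 2.99 and 1.91 FPKM. In bulk RNA, fewer cells of a type and less RNA per cell cannot be told apart.

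With SAA1, 6 of the 35 genes rose and 0 fell. Highest in fold was Mxi1, a repressor that competes with Myc for its partner Max, followed by P4ha2, a collagen prolyl hydroxylase, and Slc16a3, the lactate exporter MCT4. Ddit4, an inhibitor of the growth kinase complex mTORC1, Bnip3, a receptor for mitophagy, and Egln3, the oxygen sensor PHD3, completed the group. Over all 11481 tested genes in the authors' deposited table, 3.97% were called higher, 2.55% lower and 6.52% in either direction. Of the 10 HIF targets outside glycolysis 4 were called higher, of the 4 oxygen-sensing genes 1, and of the 21 glycolysis and lactate genes 1, a share of 4.76% that is near the 3.97% of all genes. The genes were listed with earlier results of these data known, so these counts are a description and no test was made of the difference between groups.

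**Figure D1:**
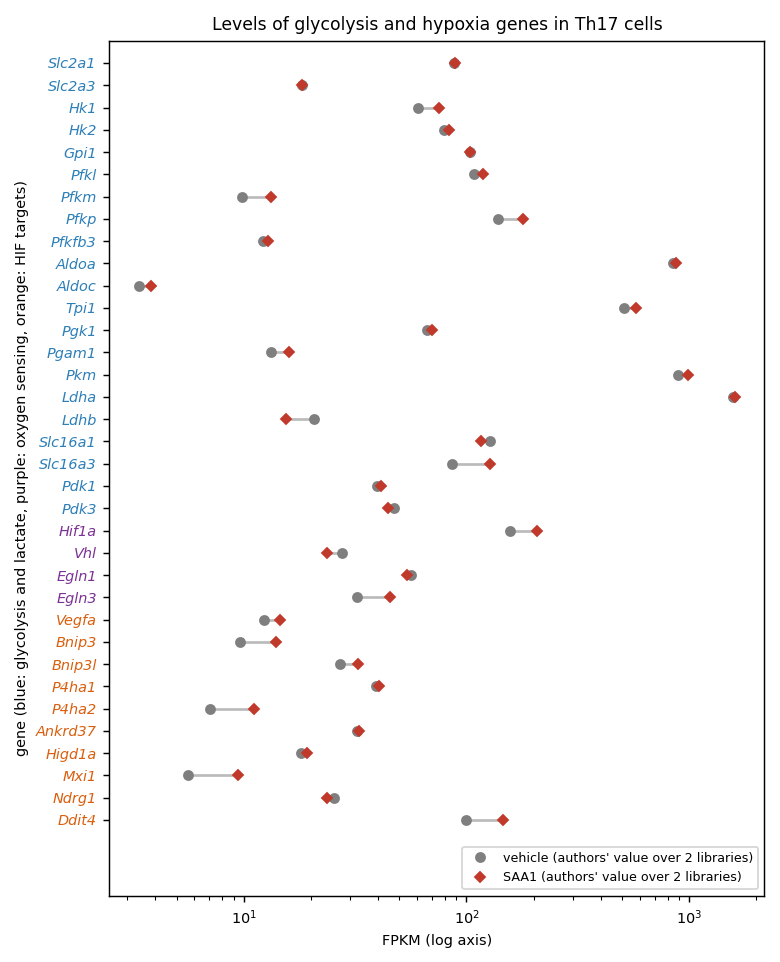
Level of each of the 35 genes in FPKM (log axis), with the authors' value for vehicle as a grey circle and for SAA1 as a red diamond, and gene names coloured by role. The strongly expressed glycolytic genes, from Tpi1 at 511 to Ldha at 1578 FPKM with vehicle, have nearly coinciding symbols, while Mxi1, P4ha2 and Slc16a3 have symbols set apart.

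Mxi1 was at 5.65 FPKM with vehicle and 9.40 with SAA1, a fold of 1.66 and a log2 ratio of 0.73 ± 0.22. The authors' deposited table gives it an adjusted p of 0.0019, the smallest it holds. That value is shared by 300 genes, so it does not rank Mxi1 among them. P4ha2 was at 7.03 FPKM with vehicle and 11.1 with SAA1, a log2 ratio of 0.66 ± 0.23 (authors' deposited table: adjusted p 0.0035). Both were among the weaker genes of the list, at ranks 8069 and 7611 of the 10701 genes with at least 1 FPKM by their vehicle levels.

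Slc16a3 was at 86.0 FPKM with vehicle and 128 with SAA1, a log2 ratio of 0.57 ± 0.20 (authors' deposited table: adjusted p 0.0019). Ddit4 was at 99.6 FPKM with vehicle and 146 with SAA1, with a log2 ratio of 0.55 ± 0.20 (authors' deposited table: adjusted p 0.0059). Both stand well above Mxi1 and P4ha2 in level, and their folds of 1.48 and 1.47 differ little from each other. Bnip3 was at 9.63 FPKM with vehicle and 13.9 with SAA1, a log2 ratio of 0.53 ± 0.24 (authors' deposited table: adjusted p 0.039). Egln3 was at 32.3 FPKM with vehicle and 45.2 with SAA1, a log2 ratio of 0.48 ± 0.20 (authors' deposited table: adjusted p 0.012). The 95% interval of the fold taken from the implied SE ran from 1.23 to 2.25 for Mxi1 and from 1.06 to 1.85 for Egln3. Only 2 of the 6, Mxi1 and P4ha2, had a fold of at least 1.5. The calls rest on the deposited p-values: with a normal p of the deposited statistic, adjusted over the tested genes that have a statistic, Mxi1 alone passed, at 0.044, and the others lay between 0.14 for P4ha2 and 0.45 for Bnip3.

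**Figure D2:**
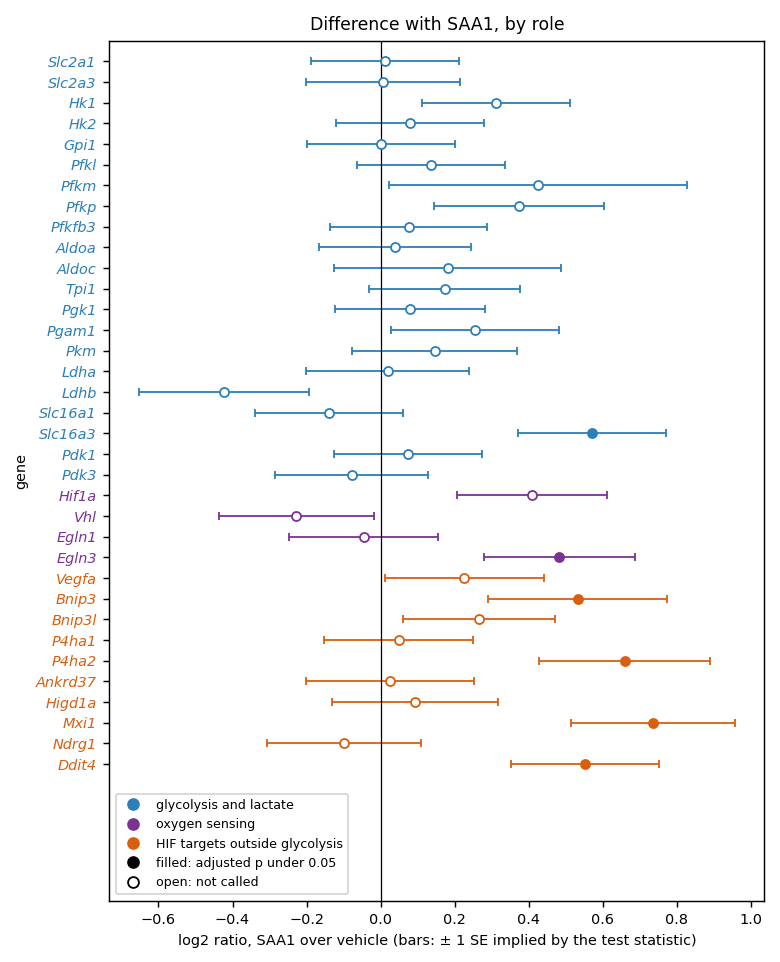
Log2 ratio of SAA1 over vehicle for each gene, with bars of 1 SE on either side as implied by the authors' test statistic, coloured by role and filled where the adjusted p is under 0.05. The 6 filled symbols lie between 0.48 (Egln3) and 0.73 (Mxi1), and the lowest open symbol is Ldhb at -0.42.

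The DNA before the start sites of the 6 called genes is shown because HIF binds a short core there or further away, ACGTG or GCGTG on either strand. The sequences are from RefSeq on GRCm38.p6 and give up to 250 bases before a gene start, 5′ to 3′ on the gene's own strand, ended where an annotated exon begins. Capitals mark each core, which reads CACGT or CACGC where it lies on the opposite strand. For Mxi1, which has 3 start sites in the table, the window shown is the 1 that holds a core and no annotated exon.
Slc16a3, chr11:120948817-120949052, plus strand: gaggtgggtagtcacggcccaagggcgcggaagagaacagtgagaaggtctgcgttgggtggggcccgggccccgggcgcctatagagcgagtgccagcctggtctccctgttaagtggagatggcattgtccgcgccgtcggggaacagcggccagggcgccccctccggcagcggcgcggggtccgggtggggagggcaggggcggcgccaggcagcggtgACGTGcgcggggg
Egln3, chr12:54203875-54204124, minus strand: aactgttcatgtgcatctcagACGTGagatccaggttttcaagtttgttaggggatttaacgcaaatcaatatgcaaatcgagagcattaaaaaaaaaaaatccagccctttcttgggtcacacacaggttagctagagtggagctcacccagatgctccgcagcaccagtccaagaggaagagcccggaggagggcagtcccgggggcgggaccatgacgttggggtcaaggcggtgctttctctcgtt
Mxi1, chr19:53329163-53329412, plus strand: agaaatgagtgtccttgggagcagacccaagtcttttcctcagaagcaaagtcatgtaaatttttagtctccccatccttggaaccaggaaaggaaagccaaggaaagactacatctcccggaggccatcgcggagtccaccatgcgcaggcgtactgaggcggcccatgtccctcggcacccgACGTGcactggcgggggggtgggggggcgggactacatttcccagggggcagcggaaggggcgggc
P4ha2, chr11:54100674-54100923, plus strand: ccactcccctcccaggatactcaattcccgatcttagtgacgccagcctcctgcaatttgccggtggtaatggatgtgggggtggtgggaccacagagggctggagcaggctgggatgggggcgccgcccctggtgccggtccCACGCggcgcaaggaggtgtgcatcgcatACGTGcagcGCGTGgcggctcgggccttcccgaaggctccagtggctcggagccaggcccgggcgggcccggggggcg
Ddit4, chr10:59951835-59952020, minus strand: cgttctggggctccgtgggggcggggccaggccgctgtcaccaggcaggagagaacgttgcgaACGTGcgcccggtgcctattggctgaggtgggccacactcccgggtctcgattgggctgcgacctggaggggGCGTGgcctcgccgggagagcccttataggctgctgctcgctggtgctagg
Bnip3, chr7:138909520-138909756, minus strand: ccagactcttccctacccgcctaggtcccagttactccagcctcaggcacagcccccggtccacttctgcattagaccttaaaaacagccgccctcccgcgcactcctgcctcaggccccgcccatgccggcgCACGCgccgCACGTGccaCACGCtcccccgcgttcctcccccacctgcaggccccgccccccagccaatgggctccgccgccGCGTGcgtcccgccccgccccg

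Each of the 6 called genes held ACGTG in at least 1 of its 250-base windows, as did 16 of the 27 other listed genes found in the table, which lacked Slc2a3, Bnip3l and Ndrg1. By the same count per gene, ACGTG was held by 18.5% of all 27025 genes in the table and by 26.5% of the 7867 with at least 1 FPKM here. Counted by window, it was in 7 of 8 windows of the called genes and 19 of 41 of the other listed genes, beside 16.6% of all 32851 windows and 22.8% of the 10002 windows of genes with at least 1 FPKM. Either core was in 7 of 8 and 32 of 41 windows, beside 38.6% and 57.8%. The median number of CG pairs per window was 21.5 for the called genes, 14 for the other listed genes, 16 for genes with at least 1 FPKM and 6 for all windows. Bnip3 holds the longer palindrome CACGTG, which contains ACGTG on both strands and is also the E-box bound by Myc and by Mxi1 with Max. The palindrome is not particular to called genes: windows of Ldha, Slc16a1, Pfkfb3, Hif1a and Pfkm, none of them called, also held it. Ldha, which was not called, held 5 matches of ACGTG in a single window, counting both strands. Each of the 2 copies of CACGTG in that window gives a match on either strand, so the matches are not 5 separate sites. A match to these letters is a description of the sequence and not a site shown to be bound, and genes are often listed as HIF targets because such cores are known near them.

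The 22 genes listed for glycolysis begin with glucose uptake, where both transporters were at almost the same level in both groups. Slc2a1, the main glucose transporter GLUT1 of T cells, was at 88.1 FPKM with vehicle and 88.7 with SAA1, with a 95% interval of the fold from 0.77 to 1.32. Slc2a3, the high-affinity transporter GLUT3, was at 18.2 and 18.3 FPKM. Neither was called, with adjusted p of 0.99 for each in the authors' deposited table.

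The 10 genes from the hexokinases through aldolase, which splits the hexose, to triose phosphate isomerase had ratios above 1 with no call, and a median log2 ratio of 0.15 (0.1 FPKM added to each value) beside -0.02 for all genes with at least 1 FPKM. Hk1, the hexokinase common to most tissues, was at 60.9 FPKM with vehicle and 75.5 with SAA1 (log2 ratio 0.31 ± 0.20), with an unadjusted p of 0.026 (authors' deposited table: adjusted p 0.21). Hk2, the hexokinase induced on T cell activation and by HIF, was at 78.9 and 83.4 FPKM (0.08 ± 0.20). Gpi1, which turns glucose phosphate into fructose phosphate, was at 103.5 and 103.6 FPKM.

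Phosphofructokinase, the committed step, is a tetramer of liver, muscle and platelet type subunits, and the platelet type led in these cells. Pfkp was at 138 FPKM with vehicle and 179 with SAA1 (log2 ratio 0.37 ± 0.23), with an unadjusted p of 0.020 (authors' deposited table: adjusted p 0.18). Pfkl, the liver type, was at 108 and 118 FPKM, and Pfkm, the muscle type, at 9.84 and 13.2. The ratio of Pfkm had an SE of 0.40, the widest of the list, and its locus overlaps that of Senp1. Hk1, Pfkp and Tpi1 also share a locus with another gene row (2210417K05Rik, Pitrm1 and Spsb2), and the reads of such rows may not be told apart. Pfkfb3, which makes the allosteric activator of phosphofructokinase, was at 12.2 and 12.9 FPKM.

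Aldolase A and triose phosphate isomerase were among the most abundant transcripts. Aldoa was at 846 FPKM with vehicle and 868 with SAA1 (log2 ratio 0.04 ± 0.21), ranks 96 and 100 of the 10701 genes. Tpi1 was at 511 and 576 FPKM (0.17 ± 0.20), while Aldoc, the brain type aldolase, was at 3.39 and 3.85 FPKM and was the lowest of the 35 genes in both groups.

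The listed genes of the ATP-yielding steps from triose phosphate to pyruvate held no call either. Gapdh, which acts in this stretch, was left out of the list for its pseudogene copies. Pgk1, phosphoglycerate kinase, was at 66.6 FPKM with vehicle and 70.3 with SAA1, and Pgam1, phosphoglycerate mutase, at 13.3 and 15.9. Pkm, pyruvate kinase, was at 888 and 983 FPKM (log2 ratio 0.15 ± 0.22), and the gene value sums over its M1 and M2 splice forms, which cannot be told apart here. The joint row of Eno1 and Gm5506 was at 35.1 and 35.5 FPKM, with a wide SE of 0.48 on its log2 ratio of 0.02. The steps differ widely in level, from 13.3 FPKM for Pgam1 to 888 for Pkm with vehicle. Pgk1, Pgam1 and, among the other members, Ldha have processed pseudogenes, and their values are uncertain if reads were divided among the copies.

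Lactate handling held the only call among the 21 listed glycolysis and lactate genes, and its members differed in sign. Ldha, the subunit that favours lactate formation, was the most abundant gene of the list at 1578 FPKM with vehicle and 1598 with SAA1, ranks 58 and 63 of 10701, with a 95% interval of the fold from 0.75 to 1.36. Ldhb, the subunit that favours the return of lactate to pyruvate, was at 20.7 and 15.4 FPKM (log2 ratio -0.42 ± 0.23). It was not called, with an unadjusted p of 0.0094 (authors' deposited table: adjusted p 0.10), and was the lowest ratio of the 35. Slc16a1, the transporter MCT1, which carries lactate both ways, was at 127 and 116 FPKM (log2 ratio -0.14 ± 0.20), against the increase of Slc16a3 given above.

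Slc16a1 was the higher of the lactate transporters with vehicle and Slc16a3 with SAA1. Slc16a3 held 40.3% of their summed FPKM with vehicle and 52.5% with SAA1, the largest shift in share among the 10 paralog families compared. Its rank among the 10701 genes went from 1178 to 748, and that of Slc16a1 from 755 to 830. Among the other families, Egln3 held 36.6% of the Egln1 and Egln3 sum with vehicle and 45.4% with SAA1, and P4ha2 15.2% and 21.4% of the P4ha1 and P4ha2 sum. Ldha held 98.7% and 99.04% of the lactate dehydrogenase sum, and Slc2a1 82.9% of the glucose transporter sum in both groups. The families hold listed genes only, so the shares are not of whole families. Egln2, a further prolyl hydroxylase at 24.8 FPKM with vehicle and 27.2 with SAA1, is outside the sum of Egln1 and Egln3. The shares have no error, since each rests on a single value per group, and no difference between paralogs was tested.

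**Figure D3:**
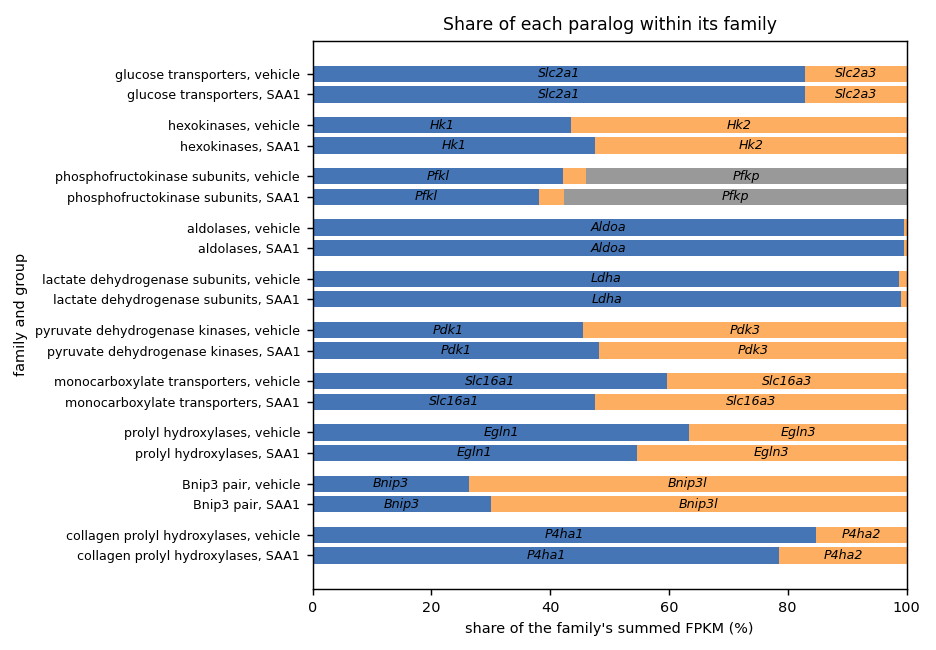
Share of each paralog in the summed FPKM of the listed genes of its family (percent), with vehicle above and SAA1 below for each of 10 families and the unlabelled slivers belonging to Pfkm, Aldoc and Ldhb. The boundary moves most for the monocarboxylate transporters, where Slc16a3 goes from 40.3% to 52.5%, and stays near 82.9% for Slc2a1.

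The pyruvate dehydrogenase kinases, which inhibit pyruvate dehydrogenase and are HIF targets in the case of Pdk1, showed no call. Pdk1 was at 39.5 FPKM with vehicle and 41.5 with SAA1, and Pdk3 at 47.1 and 44.6 FPKM. In all, the 21 glycolysis and lactate genes summed to 4844 FPKM with vehicle and 5153 with SAA1, a ratio of 1.06. The ratio was 1.04 for the sum over all rows, which includes a single row of 221303 FPKM with vehicle. The median log2 ratio of the 21 genes was 0.08, with 18 above 0 and 3 below. For all genes with at least 1 FPKM the median was -0.02, with 4937 above 0 and 5764 below.

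Among the oxygen-sensing genes, the transcript of the oxygen-regulated subunit lay just outside the threshold. Hif1a was at 157 FPKM with vehicle and 208 with SAA1, a log2 ratio of 0.41 ± 0.20, and the authors' deposited table gives it an adjusted p of 0.063. It passed at a threshold of 0.1. HIF-1α is controlled largely as a protein, which these data do not measure. Vhl, which encodes the substrate-binding part of the ligase that destroys it, was at 27.7 and 23.6 FPKM (-0.23 ± 0.21). Egln1, the main oxygen-sensing prolyl hydroxylase PHD2, was at 56.1 and 54.3 FPKM (-0.05 ± 0.20), beside the increase of its relative Egln3, which is itself a HIF target.

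The HIF targets outside glycolysis split between the 4 called genes and 6 that were not. Bnip3l, the mitophagy receptor NIX and paralog of Bnip3, was at 27.0 FPKM with vehicle and 32.5 with SAA1 (log2 ratio 0.27 ± 0.20; authors' deposited table: adjusted p 0.36). Vegfa, the growth factor for blood vessels, was at 12.4 and 14.5 FPKM (0.23 ± 0.22), and P4ha1, the more abundant collagen prolyl hydroxylase, at 39.3 and 40.7 (0.05 ± 0.20). Ankrd37, a gene widely used as a hypoxia marker, was at 32.3 and 32.8 FPKM, with a 95% interval of the fold from 0.75 to 1.38. Higd1a, a mitochondrial protein induced by hypoxia, was at 18.0 and 19.2 FPKM, and Ndrg1, a stress-induced gene, at 25.4 and 23.7. The median log2 ratio of the 10 targets was 0.24, their sum 276 FPKM with vehicle and 344 with SAA1, and 9 of the 10 ratios were above 1, with Ndrg1 below.

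**Figure D4:**
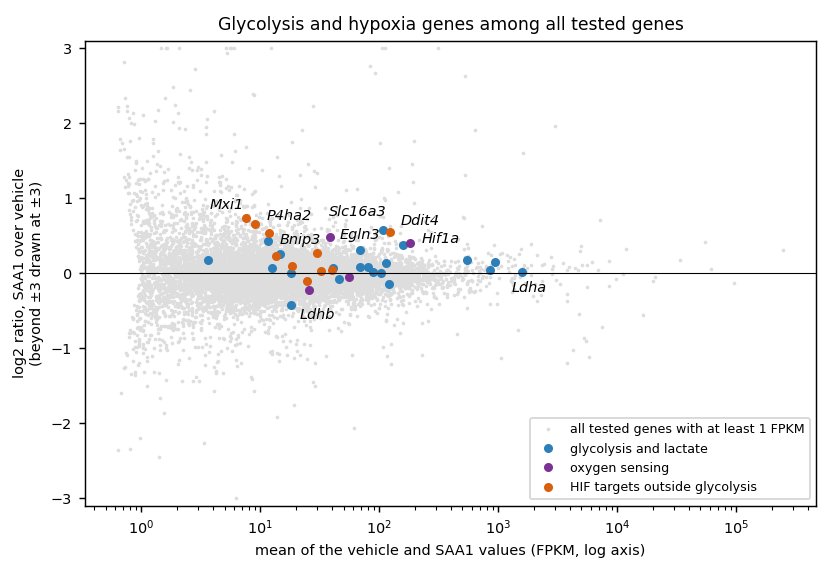
Mean of the vehicle and SAA1 values in FPKM (log axis) against the log2 ratio of SAA1 over vehicle, for all tested genes with at least 1 FPKM (grey) and the listed genes (coloured by role). The listed genes lie within -0.42 (Ldhb) and 0.73 (Mxi1), inside the grey cloud, and the 5 most abundant, Ldha, Pkm, Aldoa, Tpi1 and Hif1a, have ratios from 0.02 to 0.41.

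A further list of glycolytic isoforms, sugar transporters and related enzymes held 3 calls, all higher, among 13 tested, while 3.97% of all tested genes were called higher. Eno2, the neuronal enolase, which is also a HIF target, was at 1.502 FPKM with vehicle and 2.90 with SAA1 (log2 ratio 0.95 ± 0.32; authors' deposited table: adjusted p 0.0019). Galm, which interconverts the anomers of galactose and glucose, was at 10.5 and 18.0 FPKM (0.78 ± 0.22; authors' deposited table: adjusted p 0.0019). Pfkfb4, a HIF-inducible relative of Pfkfb3, was at 3.15 and 4.61 FPKM (0.55 ± 0.25; authors' deposited table: adjusted p 0.041). These 3 genes are low in level beside the main enzymes, and the median log2 ratio of the 13 was 0.10. Eno3, the muscle enolase, was at 17.1 and 18.03 FPKM and was not called.

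The pathways that branch from glycolysis held no call at all in the authors' deposited table, and no member with an unadjusted p under 0.05, in 10 tested genes of pyruvate entry, 9 of the pentose phosphate pathway and 8 of glycogen metabolism. Over all tested genes, 6.52% were called in either direction and 15.8% had an unadjusted p under 0.05. The widest ratios were those of Mpc2, a subunit of the mitochondrial pyruvate carrier, at 68.4 and 80.7 FPKM, and Pdha1, of pyruvate dehydrogenase, at 132 and 116. In the pentose phosphate pathway they were those of Rpe and Rpia, the epimerase and isomerase of ribulose phosphate, at 61.8 and 51.9 and at 53.9 and 47.1 FPKM. For glycogen they were those of Gyg, which primes the polymer, at 27.3 and 22.8 FPKM, and Gys1, glycogen synthase, at 7.99 and 8.65. The loci of Pdha1 and Rpe each overlap another row, and the reads of such rows may not be told apart. Of 17 tested genes of the citric acid cycle 0 were called in the authors' deposited table and 2 had an unadjusted p under 0.05, Idh2 at 53.5 and 67.4 FPKM and Suclg2 at 14.5 and 18.2, a share no higher than the 15.8% of all tested genes. The medians of these lists lay between -0.02 and 0.04.

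Other parts of the HIF machinery were not called in the authors' deposited table. Of 10 tested genes, 0 had an adjusted p under 0.05 and 0 an unadjusted p under 0.05. The shares of all tested genes were 6.52% and 15.8%. Hif1an, the asparagine hydroxylase that blocks HIF activity, was at 7.55 FPKM with vehicle and 6.29 with SAA1, and Tceb1, elongin C of the VHL complex, at 121 and 105. Epas1, which encodes HIF-2α, was at 0.0551 and 0.0870 FPKM and was not tested.

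A second list of HIF targets, not among the 36 genes, held calls in both directions. Of 15 tested, 1 was called higher and 1 lower in the authors' deposited table, beside 3.97% and 2.55% of all tested genes. The median log2 ratio was -0.01 over the 13 with at least 1 FPKM. Plod1, a lysyl hydroxylase of collagen, was at 1.99 FPKM with vehicle and 3.03 with SAA1 (log2 ratio 0.61 ± 0.28; authors' deposited table: adjusted p 0.042). Stc2, the glycoprotein stanniocalcin 2, fell from 3.48 to 1.92 FPKM (-0.86 ± 0.32; authors' deposited table: adjusted p 0.0071).

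The networks in which Mxi1 and Ddit4 act held 1 further call each, both lower. Over all tested genes, 2.55% were called lower and 6.52% in either direction. Myc, which drives glycolytic genes and which Mxi1 opposes, fell from 56.4 to 40.5 FPKM (log2 ratio -0.48 ± 0.20; authors' deposited table: adjusted p 0.013), the only call among 9 tested genes of the Myc and Max network. Max itself was at 30.5 and 32.6 FPKM. Txnip, which lowers glucose uptake and has a locus that overlaps another row, fell from 67.8 to 46.2 FPKM (-0.55 ± 0.20; authors' deposited table: adjusted p 0.0019), the only call among 15 tested genes of mTORC1 and growth control. Mtor, the kinase that Ddit4 restrains, was at 11.4 and 12.0 FPKM, and was chosen for naming after its values were seen, as were Max, Eno3 and Epas1. Of the 7 genes called in these neighbouring lists, 1 also passed with a normal p of the deposited statistic, Galm at an adjusted p of 0.025.

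**Figure D5:**
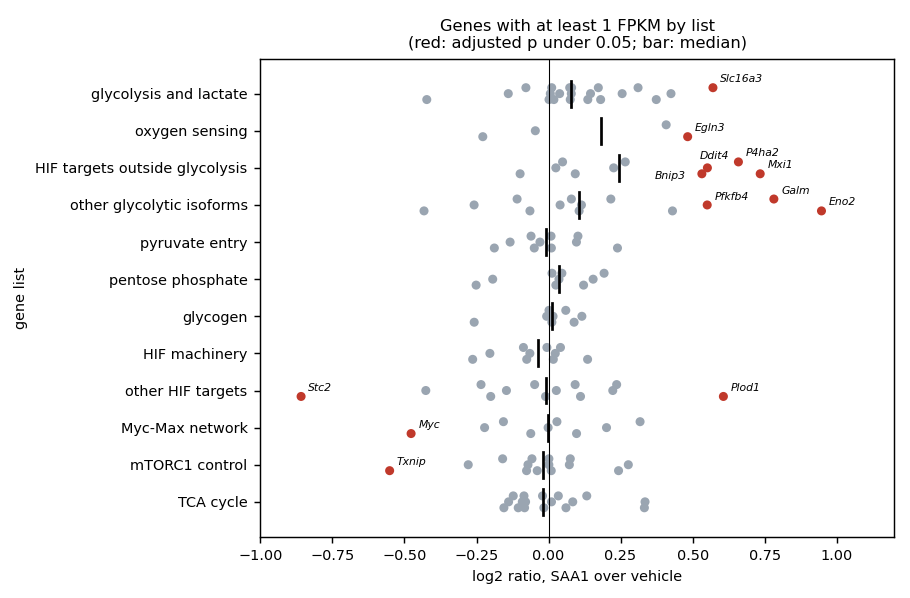
Log2 ratio of SAA1 over vehicle for each tested gene with at least 1 FPKM in the 3 role groups and in 9 neighbouring gene lists, red where the adjusted p is under 0.05, with a bar at each median. Called genes sit to the right in the HIF target and glycolytic isoform lists, on both sides in the list of other HIF targets (Plod1 at 0.61, Stc2 at -0.86) and to the left for Myc and Txnip.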

How the data were processed

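The labels group 4 libraries by title, 2 as vehicle and 2 as SAA1. TopHat2 and Cuffdiff, without versions, and the builds mm9 and mm10 are named in the submitters' processing notes, while the sources used here do not give scaling, filters or strandedness. The authors' deposited table gives 1 FPKM value per group, a test statistic (a score), a p-value and an adjusted p per gene, per the file headers. Values per library were not analysed here, so depth is unknown, and the foreseen fit per library was not run. From these, with Python 3.11.15 and pandas 2.3.3, log2 ratios of SAA1 over vehicle were computed, and SEs as log2 ratio over statistic. List medians used FPKM plus 0.1 over genes reaching 1 FPKM in either group.

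All 35 loci overlapped the GRCm38.p6 position of their gene. Promoter windows were RefSeq's. Only the printed sequences were cut at exons of GENCODE M21, and the counts of cores and CG pairs used the full 250 bases. Slc16a3 therefore counts 2 matches of ACGTG in its full window and 1 in the sequence printed. The adjustment, the overlap check and the core search were tested on simulated data. Every listed gene was named, with called members of each other list, up to 4, or else its largest 2 ratios. Some genes covered by this rule are not reported here. The members and lists were chosen with earlier results of these data known. Nothing says whether the 2 libraries of a group are separate cultures, so the authors' p-values may measure technical spread only.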

Additional observations from a re-analysis of the deposited data

How the results depend on the processing

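The number of listed genes called, 6, was 4 at an adjusted p under 0.01 (without Bnip3 and Egln3) and 7 at 0.1 (with Hif1a). It was 6 when adjusted over genes with at least 1 FPKM. Leaving out rows that share a locus could not change the number, because no called gene shares one. The number fell to 2 with a fold of at least 1.5 in addition (Mxi1 and P4ha2). It fell to 1 (Mxi1) with a normal p of the deposited statistic, an alternative chosen after seeing the data. Under that alternative 247 genes passed, against 749 as deposited. The 78 tested rows without a statistic could not enter the alternative but were among those tested as deposited. All calls in these settings were higher with SAA1. Under a pseudocount of 1, minimums of 5 FPKM or none, centring, the mean and the other choices listed, the medians ranged from 0.07 to 0.11 for glycolysis, 0.23 to 0.30 for HIF targets and 0.15 to 0.20 for oxygen sensing, each within 0.1 of its main value. Several of these settings could not move a median that far. All HIF targets and oxygen-sensing genes exceed 5 FPKM and none shares a locus, so neither minimum nor leaving out shared loci could change their medians. Removing the minimum could not change that of glycolysis either. Centring shifts every median by the same small amount. A pseudocount of 1 cannot change the sign of a log2 ratio, so it is no check of direction. Centring subtracted the median log2 ratio of all genes with at least 1 FPKM, -0.02, and changed the sign of no member. No paired analysis was possible because the table holds 1 value per group, and leaving out a replicate was not run for the same reason. The implied SE had a median of 0.21 and a minimum of 0.20 over the 35 genes, also at the highest levels, and the 95% interval covered no difference for 28 of them, and the smallest fold called among them was 1.40.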
